A study of Mus musculus with 6 samples.

Results

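The genes described here encode the TGF-beta ligand Tgfb1, the receptors Tgfbr1 and Tgfbr2, the signal carriers Smad2, Smad3 and Smad4, the inhibitory Smad7 and the co-repressors Ski, Skil and Tgif1. They were chosen by name for their place in the pathway, with earlier results of these data known. They are 10 genes of 23574 in the count tables. RNA was sequenced from haematopoietic stem cells sorted as Lin- Sca+ c-Kit+ CD34- Flt3-, 3000 cells per library. The groups were 3 libraries from Hlf knockout mice (HLF KO 1 to 3) and 3 from wild-type littermates (WT 1 to 3), all on the C57BL/6 strain. Hlf (hepatic leukemia factor) encodes a PAR bZIP transcription factor, and the title of the series names the quiescence of stem cells as its theme. The labels give no age, no sex, no description of the knockout allele and no number of mice per library, so p-values measure the spread between libraries, which may be partly technical.

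TGF-beta is secreted in a latent complex and must be released before it can bind. The active ligand binds the type II receptor Tgfbr2, which phosphorylates the type I receptor Tgfbr1, and Tgfbr1 then phosphorylates Smad2 and Smad3, which enter the nucleus with Smad4. Smad7 blocks the receptors, while Ski, Skil and Tgif1 restrain Smad-driven transcription, and in bone marrow the pathway is known for holding stem cells out of the cell cycle.

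Total counts were 10182464 to 11998296 in HLF KO libraries and 8346335 to 9902102 in WT libraries. Hlf fell to 28.3, 37.6 and 37.3 CPM (read counts scaled to a common library size with TMM factors) in HLF KO libraries, against 1370.0, 1662 and 1114 CPM in WT libraries (log2 fold change -5.33, edgeR adjusted p = 1.91e-06), matching the genotype labels. It was the 1 gene of 10204 called by edgeR (0.0098%), where a call means an adjusted p under 0.05. Of 12 stem cell markers 9 were tested, 4 with positive and 5 with negative log2 fold changes (median -0.70). Gata2, the most abundant, stood at 517 to 677 CPM in HLF KO and 473 to 588 CPM in WT libraries (0.10). Procr, Mecom and Tek were lower in every HLF KO library (-1.69, -0.83 and -0.70), and Ctnnal1 was higher in every one (0.56). Over all genes tested, 6.85% were lower and 7.52% higher in every HLF KO library. Fgd5 stood at -1.02, and none of these markers was called by edgeR (adjusted p of 0.50 to 0.84). Ly6a (Sca-1), with 6 listed transcripts, stood at 0 counts throughout. Kit (c-Kit), with 2 transcripts, had 1 count in all. Flt3, which the sort excludes, has 1 transcript and stood at 8.92 to 18.6 CPM in HLF KO and 11.2 to 33.1 CPM in WT libraries. Its log2 fold change was -0.69 (edgeR adjusted p = 0.87). Cd34, with 2 transcripts, had 2 to 8 counts per library. The sort markers Sca-1, c-Kit and CD34 therefore could not be checked in the tables.

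The same limit fell on part of the TGF-beta genes. Counts were listed per RefSeq transcript, and 97.2% of all counts fell on genes that have a single transcript, with a median of 79 counts over the 6 libraries. For genes with 2 transcripts that median was 3, and with 3 or more it was 2. Of the 10 TGF-beta genes, 6 have 1 listed transcript and 4 have several. The 3 genes that failed the filter on low counts, Tgfbr2, Smad2 and Skil, are all among those 4, so their low counts are not read as low expression.

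The type II receptor gene Tgfbr2, with 2 transcripts, had 18 counts in HLF KO 3 and 0 in the other 5 libraries. Smad2, also with 2, had 0, 15 and 0 counts in HLF KO libraries against 0, 12 and 0 in WT libraries, all on 1 transcript. Skil, with 3 transcripts, had 1, 0 and 1 counts in HLF KO libraries and 0 in each WT library. No comparison was made for these 3 genes. Tgif1, which encodes a homeodomain co-repressor, has 5 transcripts and 256 counts in all, enough to pass the filter. Its transcripts took 113, 110, 29, 4 and 0 of these counts. Its value may therefore not stand for the whole gene.

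Of the 7 genes tested, 3 had a positive and 4 a negative log2 fold change, beside 47.2% positive over all genes tested, and 0 were called by edgeR. The median log2 fold change of the 7 was -0.87, beside -0.05 over all 10204 genes tested, but it was -0.14 without WT 1, -0.18 without WT 2 and -1.25 without WT 3. At an unadjusted p under 0.05 there were 2 of the 7, Tgfb1 and Smad3, where 7.27% of all genes tested passed. Tgfb1 alone had no overlap between genotypes, a pattern seen in 14.4% of all genes tested (7.52% higher and 6.85% lower in every HLF KO library). DESeq2 called 1 of the 7, Tgfb1, where it called 1.56% of the genes to which it gave an adjusted p.

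The promoters of these 2 genes are shown because the genotypes differ by the loss of a transcription factor. The sequences are the 250 bases before the annotated start in RefSeq's GRCm38.p6 table, Tgfb1 at chr7:25686752-25687001 on the plus strand and Smad3 at chr9:63757995-63758244 on the minus strand. Capitals mark GC boxes (GGGCGG on either strand), the element bound by Sp1.
Tgfb1: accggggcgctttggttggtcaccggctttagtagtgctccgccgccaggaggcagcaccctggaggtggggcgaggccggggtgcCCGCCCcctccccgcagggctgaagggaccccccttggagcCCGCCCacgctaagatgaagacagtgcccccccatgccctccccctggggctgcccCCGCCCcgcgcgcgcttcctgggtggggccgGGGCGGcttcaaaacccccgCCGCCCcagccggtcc
Smad3: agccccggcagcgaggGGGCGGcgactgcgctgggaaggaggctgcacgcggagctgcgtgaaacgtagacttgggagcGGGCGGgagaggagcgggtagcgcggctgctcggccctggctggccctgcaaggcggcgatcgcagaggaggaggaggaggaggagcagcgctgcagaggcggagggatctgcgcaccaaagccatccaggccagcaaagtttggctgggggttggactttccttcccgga
The Tgfb1 window was 75.2% G and C and the Smad3 window 69.2%, where the median over 32851 promoter windows of the same length was 52.4%. GC boxes were matched in both, and 32.7% of all windows hold at least 1. Neither window holds TTACGTAA or TTATGTAA, sequences that PAR bZIP factors bind (both strands searched, held by 0.113% and 0.819% of windows), or the AP-1 sequence TGACTCA (4.46% of windows). Absence of a match says only that these letters are not in the 250 bases.

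Tgfb1, the ligand, stood at 160.6, 190.6 and 184 CPM in HLF KO libraries, against 75.2, 88.5 and 98.4 CPM in WT libraries. Every HLF KO library lay above every WT library, and the replicates of each genotype lay close together. The mean was 178 ± 15.8 CPM in HLF KO and 87.4 ± 11.6 CPM in WT (SD, n = 3 each). Its log2 fold change was 1.03 (SE 0.28), a 2.04-fold higher level with a 95% interval of 1.33 to 3.13. By edgeR's quasi-likelihood test the unadjusted p was 0.0034 and the adjusted p 0.47, and 68 genes, 0.666% of those tested, had an unadjusted p as small or smaller. DESeq2 gave an adjusted p of 0.011. An exact two-sided permutation test gave p = 0.1, which is as low as 3 libraries against 3 can reach. With each library left out in turn the log2 fold change ran from 0.95 to 1.13, and edgeR's unadjusted p from 0.0046 to 0.017.

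**Figure D1:**
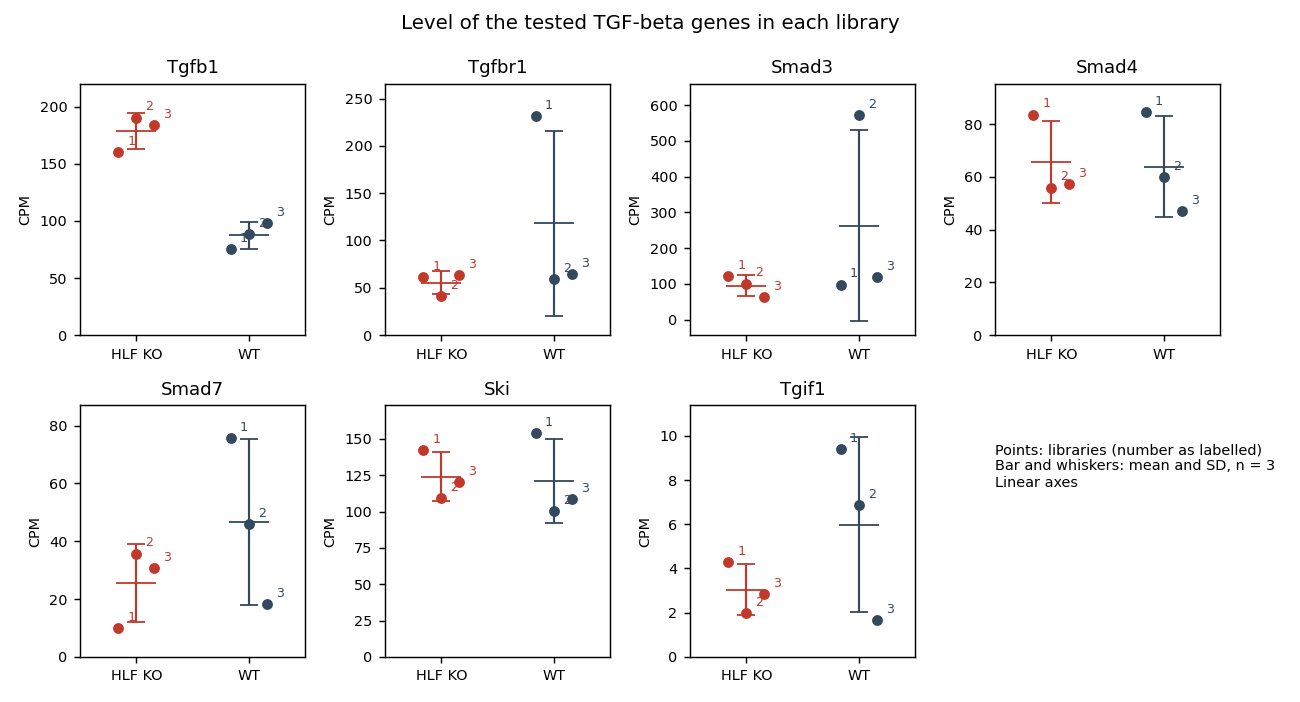
Level of each tested TGF-beta gene in CPM (linear axes) in HLF KO libraries (left) and WT libraries (right), with points numbered by library and bars for mean and SD (n = 3). Tgfb1 separates the genotypes, whereas WT 1 stands apart for Tgfbr1 and WT 2 for Smad3.

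Tgfb1 is also abundant in platelets and is made by lymphocytes, so marker lists of those cells were read in the same libraries. The 10 megakaryocyte and platelet markers summed to 816, 1025 and 1089.9 CPM in HLF KO libraries, against 632, 464 and 470.2 CPM in WT libraries. The genotypes did not overlap on this sum either. Pf4, the platelet chemokine, made up much of it, at 353 to 507 CPM in HLF KO and 96.4 to 185 CPM in WT libraries. Of the 10 markers, 3 (Pf4, Gp1ba and Gp9) were higher in every HLF KO library, beside 7.52% of all genes tested, and Clec1b was at 0 in all. Among the 9 tested, 7 had positive and 2 negative log2 fold changes. Vwf (0.08), Itgb3 (-0.004) and Ppbp (-1.95) did not follow Pf4. The T and NK cell markers, 10 of 11 found in the tables, summed to 349, 400.4 and 634 CPM in HLF KO libraries and to 216, 242 and 130.4 CPM in WT libraries, again without overlap. Of the 10, 3 (Nkg7, Ccl5 and Cd3g) were higher in every HLF KO library, beside the same 7.52% of all genes tested. Nkg7 made up most of the sum in HLF KO libraries (254 to 463 CPM in HLF KO, 71.4 to 156 CPM in WT), whereas Cd3e, a subunit of the T-cell receptor complex, stood at 19.2 to 21.2 CPM in HLF KO and at 2.77 to 83.5 CPM in WT libraries. Cd4 was lower in every HLF KO library, at 0.549, 4.80 and 9.70 CPM against 39.7, 16.5 and 11.9 CPM in WT libraries (log2 fold change -2.17, edgeR adjusted p = 0.69). Cd8a and Lck were at 0, each with several listed transcripts. The 8 B cell markers summed to 53.3, 34.0 and 28.1 CPM in HLF KO libraries and to 47.3, 81.1 and 159.9 CPM in WT libraries, which overlap. The 3 tested B cell genes all had negative log2 fold changes (median -4.06), and Vpreb1 was lower in every HLF KO library (0 to 0.0942 CPM, against 7.38 to 27.6 CPM in WT). The 12 stem cell markers summed to 831 to 993 CPM in HLF KO and 1046 to 1100.4 CPM in WT libraries. The part of these differences in the Tgfb1 value was not tested. The Lin- gate is meant to remove mature blood cells. In sorted populations like these, more cells of a type and more RNA per cell cannot be told apart.

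**Figure D2:**
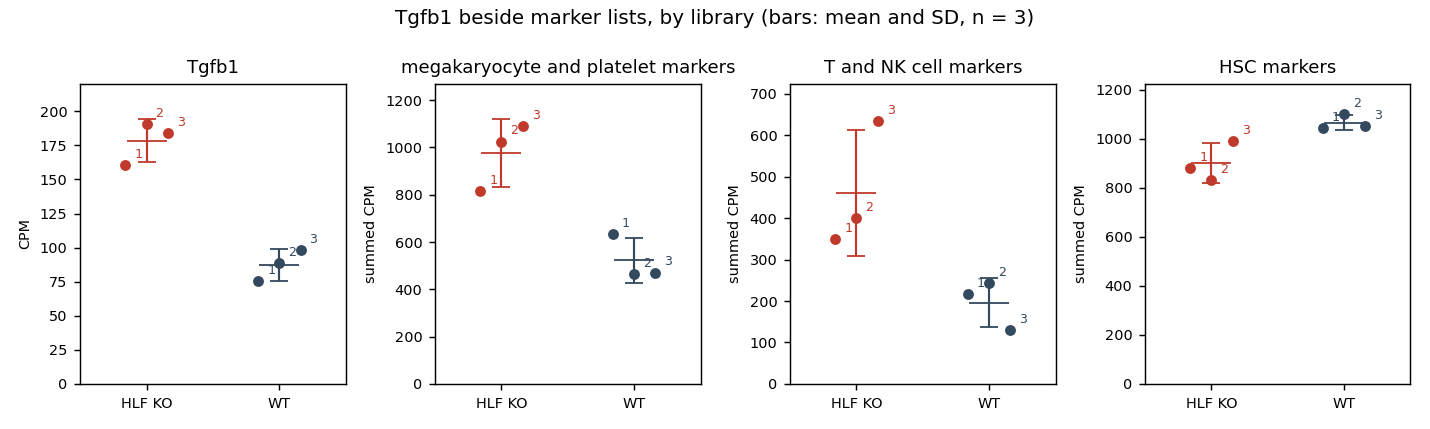
Tgfb1 in CPM and the summed CPM of 3 marker lists in HLF KO libraries (left) and WT libraries (right), with bars for mean and SD (n = 3). Tgfb1, the megakaryocyte and platelet sum and the T and NK cell sum are higher in every HLF KO library, and the stem cell marker sum is lower in every one.

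Tgfbr1, the type I receptor kinase, stood at 61.1, 41.5 and 63.3 CPM in HLF KO libraries, against 231, 59.2 and 64.3 CPM in WT libraries. One library, WT 1, was 3.6 times the next highest, and the other two WT libraries lay within or just above the range of the HLF KO libraries. The log2 fold change of -1.09 (SE 0.52, 95% interval -2.23 to 0.04, edgeR adjusted p = 0.68) was -0.14 without WT 1.

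Smad3 showed the same kind of pattern in a different library. As a receptor-activated Smad it binds DNA directly with Smad4. Its level was 120.8, 100.7 and 63.9 CPM in HLF KO libraries and 97.7, 571 and 119.3 CPM in WT libraries, so that WT 2 was 4.73 times the next highest and the remaining WT values lay within the HLF KO range. The log2 fold change was -1.47 (SE 0.58, 95% interval -2.73 to -0.20, edgeR unadjusted p = 0.027, adjusted p = 0.64). Without WT 2 it was -0.18, and without WT 1 it was -1.85. DESeq2 did not call it (adjusted p = 0.25), and the exact two-sided permutation test gave p = 0.5.

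Genes with 1 library at least 3-fold above all others, a threshold set after these values were seen, were more frequent in WT than in HLF KO libraries. HLF KO 1, 2 and 3 stood out in this way for 39, 36 and 32 of the 10204 genes tested, and WT 1, 2 and 3 for 239, 168 and 123. Tgfbr1 was among the 239 of WT 1, and Smad3 among the 168 of WT 2. Among the marker lists, erythroid markers summed highest in WT 1 (575 CPM, 364 to 500.4 CPM in the other libraries) and macrophage markers in WT 2 (67.1 CPM, 15.8 to 62.1 CPM in the others). WT 3 stood apart most, with granulocyte markers at 2401 CPM (62.7 to 191 CPM in the others), and had the highest B cell sum (159.9 CPM) and endothelial and stromal sum (201.7 CPM, 49.9 to 93.9 CPM in the others). The part of these markers in the values of the TGF-beta genes was not tested.

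Smad4, the partner shared by the receptor-activated Smads, stood at 83.6, 55.9 and 57.2 CPM in HLF KO libraries and 84.7, 60.0 and 47.0 CPM in WT libraries. The genotypes overlapped fully, with a log2 fold change of 0.04 (SE 0.40). The 95% interval ran from -0.84 to 0.92, so a change of up to 1.89-fold upward or to 0.557 of the WT level lies inside it. Its sign turned when HLF KO 1 or WT 3 was left out (-0.17 and -0.14).

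Smad7, the inhibitory Smad that TGF-beta itself induces as feedback, stood at 10.1, 35.7 and 30.8 CPM in HLF KO libraries, against 75.8, 45.9 and 18.3 CPM in WT libraries. HLF KO 1 was the lowest library and WT 1 the highest, and WT 3 lay below the other two HLF KO libraries. The log2 fold change of -0.87 (SE 0.66, edgeR adjusted p = 0.79) was -0.32 without WT 1 and -0.48 without HLF KO 1. Its spread was wide in both genotypes, with an SD of log2 CPM of 0.99 in HLF KO and 1.03 in WT.

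Among the co-repressors, Ski stood at 142, 109 and 120.3 CPM in HLF KO libraries and 154, 100.2 and 108 CPM in WT libraries. These ranges overlap, and the log2 fold change was 0.04 (SE 0.31, 95% interval -0.63 to 0.70). Its sign turned when HLF KO 1, WT 2 or WT 3 was left out (-0.07, -0.076 and -0.03). Ski has the narrowest interval of the 6 tested genes other than Tgfb1, reaching from 0.645 to 1.63 times the WT level. Tgif1 stood at 4.30, 1.98 and 2.86 CPM in HLF KO libraries and 9.41, 6.86 and 1.66 CPM in WT libraries. WT 3 was its lowest library, and the log2 fold change of -0.97 (SE 1.28) has an interval from -3.76 to 1.82.

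**Figure D3:**
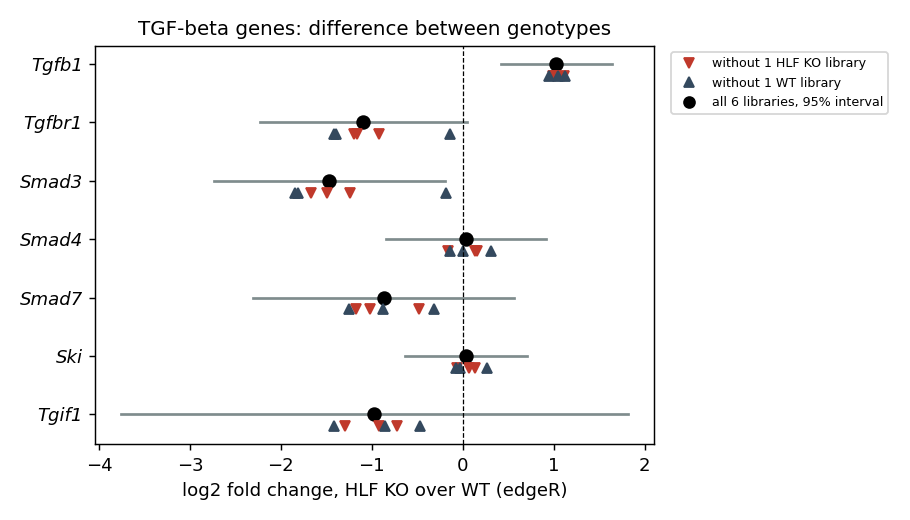
Log2 fold change of HLF KO over WT for the 7 tested TGF-beta genes (black points, with 95% intervals), with the values obtained when 1 HLF KO library (red) or 1 WT library (blue) was left out. Tgfb1 stays between 0.95 and 1.13, whereas Tgfbr1 is -0.14 without WT 1 and Smad3 is -0.18 without WT 2.

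Levels were compared between genes per kilobase of transcript, for the 6 genes with 1 listed transcript. In HLF KO libraries Tgfb1 was the highest at 82.1 ± 7.29 CPM per kilobase (SD, n = 3). Ski (22.5 ± 3.06), Smad4 (19.4 ± 4.62) and Smad3 (18.7 ± 5.67) followed on the same scale and did not differ beyond their spread. Tgfbr1 (9.61 ± 2.08) and Smad7 (5.97 ± 3.18) came last. In WT libraries Tgfb1 stood at 40.2 ± 5.35 CPM per kilobase, and Smad3 at 51.6 ± 52.5 with 112 in WT 2 and 19.2 and 23.4 in the others. Ski (21.9 ± 5.27), Tgfbr1 (20.5 ± 17.0) and Smad4 (18.9 ± 5.67) lay within each other's spread there, and Smad7 was at 10.9 ± 6.73. The Tgfbr1 mean rests on WT 1, with 40.1 CPM per kilobase in WT 1 and 10.3 and 11.2 in WT 2 and WT 3, below every Ski and Smad4 value in WT libraries (lowest 18.1 and 13.9).

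The tested TGF-beta genes varied more between WT libraries than between HLF KO libraries. The median SD of log2 CPM over the 7 genes was 0.34 in HLF KO and 1.03 in WT, beside 0.46 and 0.75 over all genes tested. WT 1 was the highest library for 5 of the 7 (Tgfbr1, Smad4, Smad7, Ski and Tgif1), WT 2 for Smad3 and HLF KO 2 for Tgfb1. Tgfb1 was the least variable of the 7 in either genotype, with an SD of 0.13 in HLF KO and 0.20 in WT.

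The genes whose log2 CPM followed Tgfb1 most closely over the 6 libraries were Plau (Pearson's r = 0.990), Bub1b (0.988), Hmgn1 (0.986), Ppp1r7 (0.986) and Snapin (0.985), as a description over few points, with 178 genes at r of 0.9 or more. Each of those named was, like Tgfb1, higher in every HLF KO library, beside 7.52% of all genes tested. Their r therefore largely restates the split by genotype. Bub1b, a spindle checkpoint kinase, stood at 111, 160.3 and 133 CPM in HLF KO libraries and 53.9, 60.0 and 64.6 CPM in WT libraries. Plau, a secreted protease, was near the floor, at 1.65 to 2.94 CPM in HLF KO and 0 to 0.111 CPM in WT libraries. For Smad3 the closest were Tnpo3 (0.991), Phip (0.983), Phf11d (0.982), Xpo6 (0.981) and Trappc1 (0.981), each highest in WT 2, as Smad3 was.

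The wider pathway was read from 6 lists, also drawn up with earlier results of these data known. They hold 101 further genes, of which 64 were tested. None was called by edgeR (0 of 64). At an unadjusted p under 0.05 there was 1 with a higher value in HLF KO and there were 8 with lower values, beside 2.63% and 4.65% of all genes tested, and the median log2 fold change was -0.21. The genotypes did not overlap for 3 that were higher and 8 that were lower in HLF KO, beside 7.52% and 6.85% of all genes tested. DESeq2 called 2, Tgfbrap1 and Tsc22d1, where it called 1.56% of all genes to which it gave an adjusted p. Among the genes that failed the filter were the TGF-beta co-receptor Eng (3 transcripts, 8 counts), the target Cdkn1a (2 transcripts, 1 count) and Myc (4 transcripts, 0 counts), so that several standard readouts of the pathway could not be measured.

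Genes that store or release the latent ligand had 7 of 14 members tested, 3 with positive and 4 with negative values (median -0.38). Nrros, which tethers latent TGF-beta to the surface of myeloid cells, stood at 216, 232 and 251 CPM in HLF KO libraries, against 269, 458 and 326 CPM in WT libraries, with no overlap (log2 fold change -0.59, SE 0.25, edgeR adjusted p = 0.65). Ltbp3, a latent TGF-beta binding protein, stood at 66.2, 65.4 and 48.3 CPM in HLF KO and 145, 133 and 76.2 CPM in WT libraries (-0.98, SE 0.37, adjusted p = 0.62). Both were thus lower in every HLF KO library, as were 6.85% of all genes tested. The ligand gene itself was higher in every one, as were 7.52%. Neither Nrros nor Ltbp3 passed by DESeq2. The integrin subunit gene Itgav, whose product helps to activate the latent ligand, had a log2 fold change of -0.38 (SE 0.53) that turned to 0.45 without WT 1. For the membrane protease gene Mmp14 the value was 1.71 (SE 1.1), and 0.28 without HLF KO 1.

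Co-receptors and receptor partners had 5 of 11 members tested, 4 positive and 1 negative (median 0.29). Tgfbr3 (betaglycan), which presents ligand to Tgfbr2, was well covered at 264 to 323 CPM in HLF KO and 169 to 320.0 CPM in WT libraries, a log2 fold change of 0.09 (SE 0.27). Fkbp1a (FKBP12), which binds Tgfbr1 and keeps it inactive without ligand, stood at 148, 164 and 208 CPM in HLF KO libraries, against 520.0, 278 and 226 CPM in WT libraries, without overlap. Its log2 fold change of -0.98 (SE 0.32, adjusted p = 0.52) was -0.53 without WT 1. Tgfbrap1, a protein that associates with the receptors and with Smad4, stood at 48.4, 85.5 and 82.6 CPM in HLF KO libraries and 25.3, 32.0 and 25.6 CPM in WT libraries (1.38, SE 0.44, edgeR adjusted p = 0.50, DESeq2 adjusted p = 0.035). Strap, which binds the receptors and Smad7, was also higher in every HLF KO library (0.70, SE 0.32, adjusted p = 0.68).

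Smad regulators and partners had 16 of 22 members tested, 7 positive and 9 negative (median -0.14), and 0 had an unadjusted p under 0.05. The deubiquitinase gene Usp9x, the coactivator gene Ep300 and Sp1 stood at -0.23 (SE 0.20), -0.51 (SE 0.24) and 0.15 (SE 0.23) on the log2 fold change scale. Smad6, the inhibitory Smad of the BMP branch, had 109, 95 and 58 counts in HLF KO libraries against 10, 11 and 0 in WT libraries, a log2 fold change of 3.29 (SE 1.58, edgeR adjusted p = 0.69). Pmepa1, a membrane protein that sequesters Smads and is itself a TGF-beta target, had 100, 2 and 46 counts in HLF KO and 132, 152 and 97 in WT libraries (-1.70, SE 1.22, and -2.77 without HLF KO 1). On the CPM scale the genotypes did not overlap for either gene.

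In the non-Smad branch 9 of 11 genes were tested and 0 had an unadjusted p under 0.05. Their log2 fold changes lay between -0.26 and 0.34, with Tab2 at -0.19 (SE 0.20), Rhoa at 0.34 (SE 0.21), Ppp2r1a at 0.24 (SE 0.25) and Pak2 at 0.01 (SE 0.27), the last with a sign that turned under another scaling. In the activin and BMP branch 9 of 16 were tested, 1 positive and 8 negative (median -0.76), with 0 at an unadjusted p under 0.05. Bmpr2 stood at -0.22 (SE 0.27) and Smad1 at 0.15 (SE 0.40), the 2 genes of the branch with the highest counts, and both turned sign without WT 1. The receptor genes Acvr1b (-0.76, SE 0.67), Acvr2a (-1.18, SE 0.63) and Bmpr1a (-2.74, SE 1.58) did not pass edgeR's test either (adjusted p of 0.71 to 0.82). Each leaned on single libraries: Acvr1b was -0.03 without WT 3 and -1.36 without HLF KO 3, Acvr2a was -0.51 without WT 1, and Bmpr1a was -5.50 without HLF KO 3 and -1.67 without WT 3.

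Transcriptional targets of TGF-beta had 18 of 27 members tested, 5 positive and 13 negative, with a median log2 fold change of -0.49. At an unadjusted p under 0.05 there were 5, all lower in HLF KO (Fos, Tsc22d1, Bhlhe40, Junb and Rgs1), beside 4.65% of all genes tested. Tsc22d1, a leucine zipper protein first found as a TGF-beta-induced gene, stood at 27.4, 20.1 and 29.1 CPM in HLF KO libraries against 81.8, 123 and 45.3 CPM in WT libraries. It was lower in every HLF KO library (-1.71, SE 0.48, edgeR adjusted p = 0.47, DESeq2 adjusted p = 0.020), although it has 3 listed transcripts and may be counted in part. Fos, an AP-1 subunit that many signals induce, stood at 741, 650.0 and 487 CPM in HLF KO libraries and 1930.3, 1121 and 974 CPM in WT libraries (-1.10, SE 0.27, edgeR adjusted p = 0.43), and at -0.73 without WT 1. The clock-linked repressor Bhlhe40 (-2.30, SE 0.78) overlapped, since WT 2 had the lowest level of all at 9.98 CPM, and its log2 fold change was -1.49 without WT 3. Jun (-0.41, SE 0.32) and Zeb2, a Smad-interacting repressor (0.69, SE 0.37), overlapped too. Many of these genes respond to other signals as well, so the list is no measure of pathway activity.

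**Figure D4:**
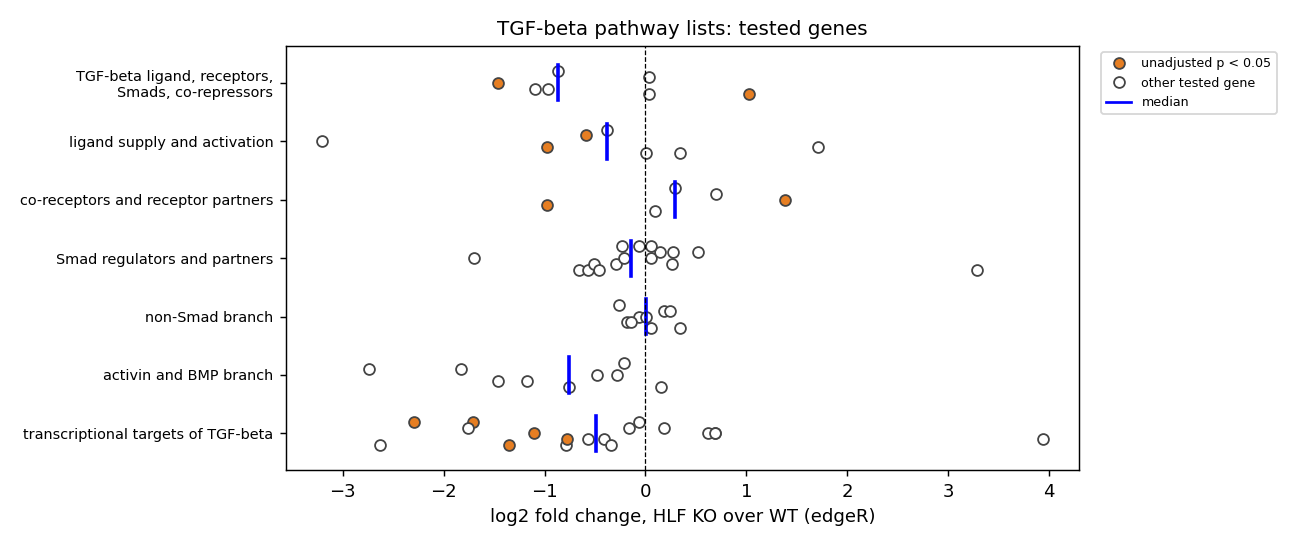
Log2 fold change of HLF KO over WT (edgeR) for each tested gene of the TGF-beta core and of 6 pathway lists, filled where the unadjusted p was under 0.05, with medians as blue bars. The medians run from -0.87 for the core to 0.29 for co-receptors and receptor partners, and 0 of these genes was called after adjustment over all genes.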

How the data were processed

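For each of the 6 libraries the authors deposited raw counts, one whole number per RefSeq transcript. TopHat and the mm9 build are named in the submitters' processing notes, per the labels. No source used here gives the counting tool, annotation release, use of strand or handling of reads shared between transcripts, and Tgfbr1, Tgfbr2, Smad3 and Smad7 overlap predicted long non-coding RNAs. Of 30858 transcripts 30363 were named from RefSeq's GRCm38.p6 table and 179 through GENCODE, and counts were summed per gene. Transcript lengths came from GENCODE transcripts matched by accession. edgeR 4.0.16 in R 4.3.3 was run with TMM and a robust fit of the quasi-likelihood test of HLF KO over WT on all 6 libraries. Benjamini-Hochberg adjustment was over 10204 genes. The filterByExpr filter asked for a level of about 10 counts in as many libraries as the smaller group has, and 15 counts in total. Standard errors came from the F statistic, and a prior count of 2 went into log2 CPM. DESeq2 1.42.0 and limma-voom (limma 3.58.1) were alternatives, as were DESeq2 size factors in edgeR, no filter, a filter of 50 counts in 3 libraries, a replicate block, thinning to the smallest library, each transcript as its own feature, genes of 1 transcript only, and leaving out each library in turn. The edgeR and DESeq2 fits were also run on simulated counts, with a pass condition on the edgeR fit only, and no result here rests on that run. Besides the TGF-beta genes, each pathway list names its 3 tested genes of highest mean log2 CPM and 3 of smallest p, and the 5 genes most alike are named for each TGF-beta gene with an unadjusted p under 0.05. Eng, Cdkn1a, Myc, Junb and Rgs1 were named after their values were seen. The genes and lists were chosen with earlier results of these data known. Intervals cover the spread between libraries only.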

Additional observations from a re-analysis of the deposited data

How the results depend on the processing

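No TGF-beta gene was called by edgeR under any setting or with any library left out (0 to 0). limma-voom called 0 and DESeq2 called 1 (Tgfb1, log2 fold change 1.01), both run on all libraries only. Over the settings that kept all libraries, Tgfb1 ran from 1.01 to 1.05. Genes called over the whole table numbered 1 as reported, 9 with no filter on low counts, 170 by DESeq2 and 1 to 3 with a library left out. DESeq2 called 2 pathway genes (Tgfbrap1 at 1.37 and Tsc22d1 at -1.73), where edgeR called 0 with each library left out. The median of the tested TGF-beta genes was -0.42 with the stricter filter (at least 50 counts in 3 libraries), which drops Tgif1, and -1.25 to -0.14 with a library left out, so it rests on single libraries. Smad4 ran from -0.17 to 0.31 and Ski from -0.076 to 0.26 with a library left out. Of the pathway genes, Pak2 ran from -0.16 to 0.34, Itgav from -0.73 to 0.45, Bmpr2 from -0.41 to 0.022, Smad1 from -0.017 to 0.52 and Tgfbr3 from -0.15 to 0.25. Pak2 turned to -0.013 with DESeq2 size factors and to -0.012 by DESeq2, and the cause was not tested. The labels number libraries 1 to 3 in both genotypes, but same-numbered libraries did not deviate together (r of -0.02 to 0.02). With the replicate block 2 genes were called, Hlf and Prg2, and 0 TGF-beta genes. Genes of several listed transcripts had low counts in these libraries, and the cause was not tested.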
